A study of Mus musculus with 4 samples.

Results

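The Ly6 family surface genes described here are the 5 rows with the symbols Ly6a, Ly6c1, Ly6c2, Ly6d and Ly6e, and all 5 were found among the 23284 genes of each file. They were chosen by symbol, with earlier results of these libraries in view, so their levels are given as a description. RNA was sequenced from living stromal cells of the whole mouse colon, gated for podoplanin and against CD45, CD31 and EpCAM, the surface marks of leukocytes, endothelium and epithelium. There are 4 libraries in 4 groups, 1 library each: IL-10 KO on C57BL/6J, wild type C57BL/6J, Rag2 KO on BALB/c and wild type BALB/c. IL-10 is an anti-inflammatory cytokine without which mice develop colitis, and Rag2 is needed to make B and T cells. The sources used here do not give age, sex, the knockout alleles or how many animals went into a library. The values are FPKM, the fragments counted for a gene scaled by transcript length and library depth.

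Ly6 proteins are small, cysteine-rich domains held to the outer cell membrane by a glycosylphosphatidylinositol (GPI) lipid anchor. Mouse Ly6a encodes Sca-1, used to sort stem cells and a mark of vessel-associated fibroblasts. Ly6c1 and Ly6c2 encode the near-identical proteins that antibodies see together as Ly6C, which is high on inflammatory monocytes and on some endothelium. Ly6d marks early B-lineage progenitors and stratified epithelium, and Ly6e is a widely expressed antiviral gene. Ly6a, Ly6c and Ly6e are known as interferon-inducible genes. BALB/c and C57BL/6 mice carry different Ly6 haplotypes, and fewer blood cells of BALB/c mice show Sca-1 on their surface.

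All 5 genes lie in 1 cluster on mouse chromosome 15 (GENCODE, GRCm38/mm10), within 350 kb. In the order of their positions, Ly6d spans 74762056 to 74763620 on the minus strand and Ly6e spans 74955051 to 74959905 on the plus strand. Ly6a follows at 74994877 to 74998031, Ly6c1 at 75044018 to 75048830 and Ly6c2 at 75108158 to 75111970, all on the minus strand. Each has 3 coding exons. The coding sequences of Ly6c1 and Ly6c2, of 393 bases each, are identical at 384 positions (97.7%), whereas Ly6a shares 81.8% with Ly6c1 and 52.3% with Ly6e. Of the 50-base windows of the Ly6c2 transcript, 33.0% occur exactly in a transcript of another gene, 252 of the 255 shared windows in Ly6c1. For Ly6c1 the share is 36.7%, for Ly6a it is 8.05%, and for Ly6d and Ly6e it is 0. How the authors assigned fragments that fit both Ly6c genes is not stated in these sources, so the split of values between Ly6c1 and Ly6c2 is uncertain.

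The RefSeq promoter table (GRCm38.p6) held Ly6c1 and Ly6c2 of the 5 genes. Their windows are shown because these neighbours were higher together in both knockout libraries. Each window runs from 250 bases before the start to 50 after it, on the minus strand, at chr15:75048788-75049087 for Ly6c1 and chr15:75111922-75112221 for Ly6c2. Capitals mark the bases that differ in the aligned stretch.
Ly6c1: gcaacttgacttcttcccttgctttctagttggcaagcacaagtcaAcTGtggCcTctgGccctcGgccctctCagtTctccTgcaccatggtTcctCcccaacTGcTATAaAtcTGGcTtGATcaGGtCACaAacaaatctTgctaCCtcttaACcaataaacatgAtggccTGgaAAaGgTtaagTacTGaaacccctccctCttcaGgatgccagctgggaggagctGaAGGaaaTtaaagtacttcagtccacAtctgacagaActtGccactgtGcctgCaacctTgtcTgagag
Ly6c2: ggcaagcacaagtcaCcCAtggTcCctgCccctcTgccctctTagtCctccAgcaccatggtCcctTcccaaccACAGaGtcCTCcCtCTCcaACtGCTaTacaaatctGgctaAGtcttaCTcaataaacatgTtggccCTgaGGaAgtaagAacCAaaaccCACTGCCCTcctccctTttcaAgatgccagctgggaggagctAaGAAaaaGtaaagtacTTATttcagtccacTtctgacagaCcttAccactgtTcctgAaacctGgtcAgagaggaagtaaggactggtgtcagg
The aligned stretch of 282 columns was identical in 208 (73.8%), below the identity of the coding parts. A search on both strands found no interferon-stimulated response element core (GAAA, any 2 bases, GAAA) and no gamma-activated site core (TTCNNNGAA) in these windows, nor in the windows of the other listed start of each gene. The cores occur in 3.44% and 8.30% of the 32851 promoter windows of the table. These letters are therefore absent from these windows, which says nothing about other positions.

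Since every group is a single library, replicate error is unknown and groups were not tested against each other, and "higher" and "lower" describe these libraries. Differences are given as log2 of FPKM plus 1, and a gene is counted when it is at least 2-fold apart on that scale and reaches an FPKM of 1 in either library. The estimated depth was between about 8400000 and 10000000 fragments, a range of 1.19-fold. Pdpn, the gene of the sort mark, was present in all 4 libraries (158 to 293 FPKM), and the summed FPKM of 13 fibroblast genes was 14554 to 16163. Transcripts of gated-out marks were present too. Ptprc, which encodes CD45, had 43.1 FPKM in the library labelled IL-10 KO and 3.34 in C57BL/6J wild type. In the BALB/c pair it had 11.5 in the library labelled Rag2 KO and 8.31 in wild type. Epcam had 21.1, 6.29, 9.35 and 2.76 FPKM in the same order, higher in each knockout library. Il10 stood at 129.9 FPKM in the library labelled IL-10 KO against 3.33 in C57BL/6J wild type, so the transcript level goes against that label, although a value over the whole gene cannot tell a deleted allele from an intact one. Rag2 had 0.712 FPKM in the library labelled Rag2 KO and was listed at 0 in the other 3. Taken alone, this low signal also goes against the label, with the same limit. Genes of B and plasma cells, however, summed to 3.15 FPKM in that library against 471 in BALB/c wild type. T cell genes summed to 14.7 against 29.5 FPKM. As Rag2 is needed to make these cells, their sums go with the label. Sex-linked transcripts differed in the C57BL/6J pair, where Ddx3y had 0.027 FPKM in the library labelled IL-10 KO and 16.9 in wild type, and Xist had 44.9 against 23.0. C57BL/6J wild type thus held both of these transcripts, so a single sex cannot be read from it. In the BALB/c pair they were alike, with Ddx3y at 31.5 against 36.3 FPKM and Xist at 0.10 against 0.051. Genotype and individual animals cannot be told apart in either pair, nor genotype and sex in the C57BL/6J pair. The wild types differed as well, with Xist at 23.0 FPKM in C57BL/6J and 0.051 in BALB/c. Strain, sex and individual animals cannot be told apart between them.

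**Figure D1:**
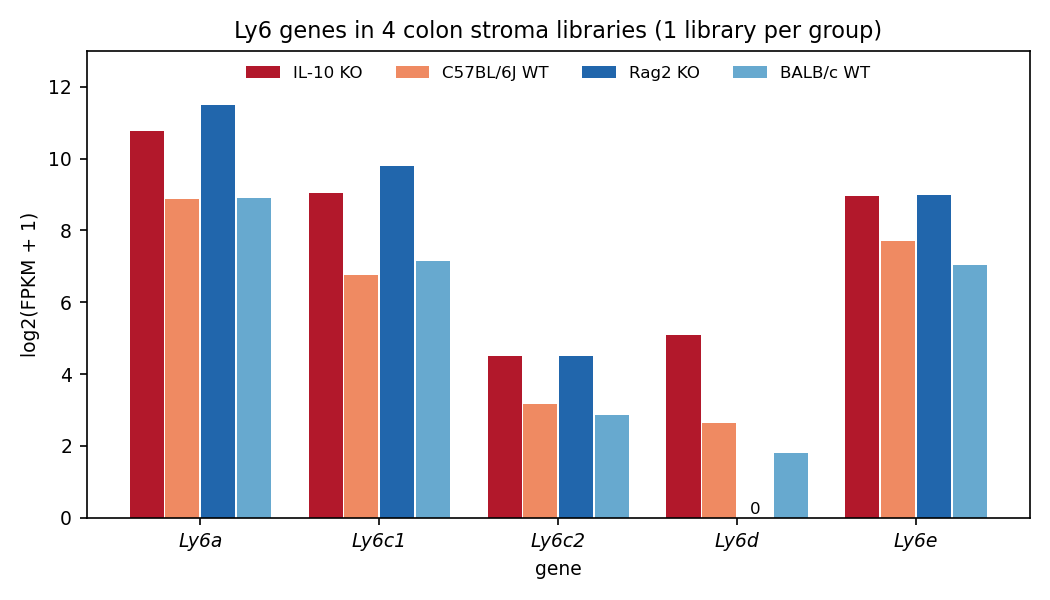
Level of each Ly6 gene, as log2 of FPKM plus 1, in the 4 libraries, 1 bar per library. Ly6a, Ly6c1, Ly6c2 and Ly6e stand higher in both knockout libraries than in the wild type of the same strain, and Ly6d is listed at 0 in the library labelled Rag2 KO.

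Ly6a was the most abundant of the 5 genes. It had 1754 FPKM in the library labelled IL-10 KO, 468 in C57BL/6J wild type, 2894 in the library labelled Rag2 KO and 475 in BALB/c wild type. Both knockout libraries were above both wild types, and the wild types were alike. Among all genes of a library, Ly6a ranked 24th by FPKM in the library labelled IL-10 KO, against 135th in C57BL/6J wild type. In BALB/c it ranked 11th in the library labelled Rag2 KO and 119th in wild type. The log2 difference was 1.90 in the C57BL/6J pair and 2.61 in the BALB/c pair, which is 3.75-fold and 6.10-fold in FPKM. Between the wild types it was 0.02 (BALB/c minus C57BL/6J). At an assumed effective length of 609 nt, counting error on that last value would be 0.08 on either side, so it is within counting error.

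Ly6c1 had 531 FPKM in the library labelled IL-10 KO, 106 in C57BL/6J wild type, 882 in the library labelled Rag2 KO and 141 in BALB/c wild type. The order was that of Ly6a, with the library labelled Rag2 KO highest and both wild types lowest. The log2 difference was 2.31 in the C57BL/6J pair (4.99-fold in FPKM) and 2.64 in the BALB/c pair (6.25-fold). Between the wild types it was 0.40, and counting error would be 0.15 on either side at an assumed 634 nt. The FPKM of Ly6c1 divided by that of Ly6a was 0.302 in the library labelled IL-10 KO, 0.305 in the library labelled Rag2 KO and 0.297 in BALB/c wild type. In C57BL/6J wild type it was lower, at 0.228.

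Ly6c2 was expressed at a far lower level than Ly6c1, with 21.7 FPKM in the library labelled IL-10 KO, 7.91 in C57BL/6J wild type, 21.6 in the library labelled Rag2 KO and 6.25 in BALB/c wild type. The knockout libraries were about equal and both above the wild types. Its FPKM in the 4 libraries stand in the ratio of whole numbers of fragments, 108, 41, 124 and 37 in the same order, all within 0.01 of a whole number once depth is removed. The smallest such numbers imply an effective transcript length of 593 nt, and a common multiple of them is not excluded by the ratios alone. The log2 difference was 1.35 in the C57BL/6J pair and 1.64 in the BALB/c pair. In FPKM this is 2.74-fold (exact 95% binomial interval 1.90 to 4.03) and 3.45-fold (2.37 to 5.12). Between the wild types the fold was 0.791 (0.493 to 1.27), so a difference was not detectable at this depth. These intervals cover counting error only, since copies made by PCR are not independent molecules.

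Ly6e had 500.4 FPKM in the library labelled IL-10 KO, 206 in C57BL/6J wild type, 507 in the library labelled Rag2 KO and 129 in BALB/c wild type. The knockout libraries were again about equal. The wild types were not, and BALB/c was the lowest of all 4, with a log2 difference of -0.67 between the wild types and a counting error of 0.07 on either side at an assumed effective length of 2071 nt. The log2 difference was 1.28 in the C57BL/6J pair (2.43-fold) and 1.96 in the BALB/c pair (3.92-fold).

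Ly6d did not follow the others. It had 32.8 FPKM in the library labelled IL-10 KO, 5.21 in C57BL/6J wild type, 0 in the library labelled Rag2 KO and 2.49 in BALB/c wild type. The library labelled IL-10 KO was highest, and the library labelled Rag2 KO was lowest. The whole fragments recovered from its values were 133, 22, 0 and 12 in that order. The log2 difference was 2.44 in the C57BL/6J pair, or 6.29-fold in FPKM (3.99 to 10.4), and -1.80 in the BALB/c pair. With 0 fragments in the library labelled Rag2 KO, a floor of 3 fragments is 0.640 FPKM there, and against it Ly6d was at least 3.89-fold lower than in BALB/c wild type. With the counting error of the 12 wild type fragments included, the exact binomial interval starts at 2.70-fold lower. Between the wild types the fold was 0.478 (0.216 to 1.01), so a difference was not detectable at this depth.

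**Figure D2:**
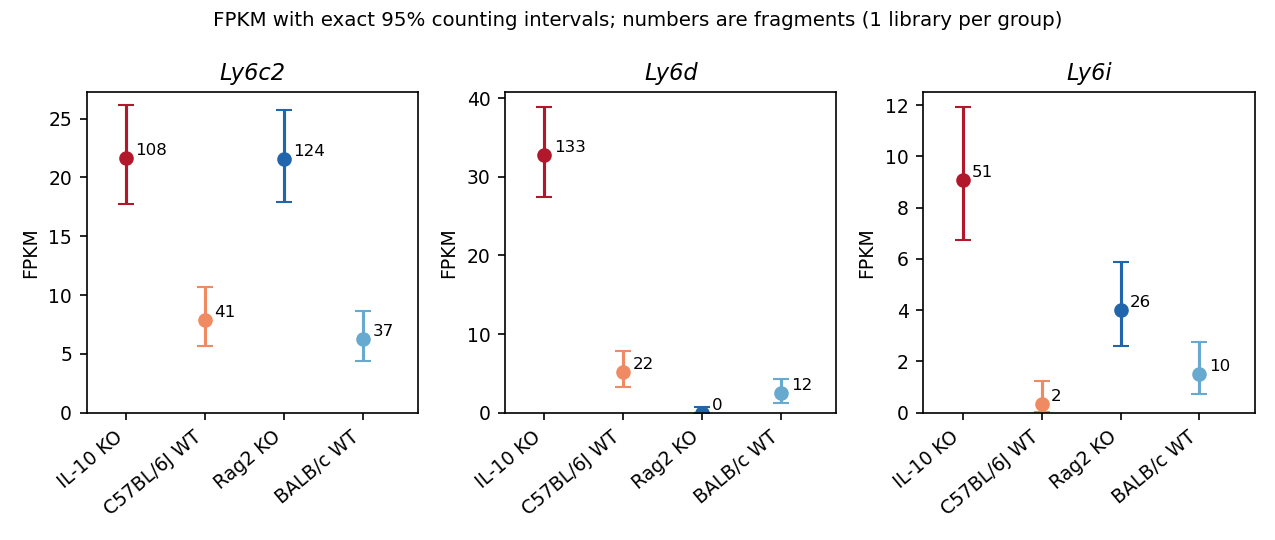
FPKM of Ly6c2, Ly6d and Ly6i in the 4 libraries on linear axes, with exact 95% Poisson intervals for counting error and the recovered whole fragments beside each point. Ly6d rests on 133, 22, 0 and 12 fragments, and Ly6i on 51, 2, 26 and 10.

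In the library labelled IL-10 KO, 5 of the 5 Ly6 genes were at least 2-fold higher than in C57BL/6J wild type and 0 were lower, where 10.1% of all 12790 tested genes were higher and 3.82% lower. The median log2 difference of the 5 was 1.90, and over all tested genes it was 0.00. In the library labelled Rag2 KO, 4 of 5 were at least 2-fold higher than in BALB/c wild type and 1, Ly6d, was lower, where 4.42% of 12336 tested genes were higher and 2.03% lower. Their median was 1.96, and over all tested genes it was 0.00. The split of all genes in the Rag2 comparison, 545 higher and 251 lower, became 659 and 635 when libraries were rescaled to the same total without small RNA genes, and the Ly6 counts did not change. Between BALB/c and C57BL/6J wild type 0 of 5 were at least 2-fold apart, where 1.81% of 12290 genes were higher and 2.17% lower. That comparison shares a library with each of the others. Summed over the 5 genes, FPKM was 2839 in the library labelled IL-10 KO against 793 in C57BL/6J wild type (3.58-fold). The BALB/c pair had 4304 in the library labelled Rag2 KO against 754 in BALB/c wild type (5.71-fold). The sum was 0.920% of all FPKM in the library labelled Rag2 KO and 0.169% in BALB/c wild type.

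The make-up of that sum also differed. Ly6a held 61.8% of it in the library labelled IL-10 KO, 59.0% in C57BL/6J wild type, 67.2% in the library labelled Rag2 KO and 63.0% in BALB/c wild type. Ly6e held 17.6%, 26.0%, 11.8% and 17.1% in that order, so it was a smaller part of the sum in each knockout library than in its wild type. Ly6c2 held under 1% in every library. Subtracting the BALB/c difference from the C57BL/6J difference gave -0.70 for Ly6a, -0.33 for Ly6c1, -0.29 for Ly6c2, -0.69 for Ly6e and 4.25 for Ly6d. The difference of Ly6a, Ly6c1, Ly6c2 and Ly6e was thus larger in the Rag2 pair, but with 1 library per group this was not tested. For Ly6c2 the counting intervals of the folds, 1.90 to 4.03 and 2.37 to 5.12, overlapped widely. For Ly6e the knockout libraries were about equal (500.4 and 507 FPKM), and the wild types were apart (206 in C57BL/6J and 129 in BALB/c).

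The cluster holds further genes of the same fold, and their levels were low. Within 200 kb of the 5 genes (74562056 to 75312066) RefSeq lists 41 genes, of which 23 were in the files and 9 were listed at 0 in all libraries. Ly6i, whose protein is found on monocytes and other blood cells, had 9.06 FPKM in the library labelled IL-10 KO, 0.341 in C57BL/6J wild type, 4.001 in the library labelled Rag2 KO and 1.496 in BALB/c wild type. These values correspond to 51, 2, 26 and 10 fragments, a 26.5-fold ratio in the C57BL/6J pair (6.98 to 225) and a 2.67-fold ratio in the BALB/c pair (1.25 to 6.21). On the log2 scale used for counting, Ly6i in the BALB/c pair was at 1.003, only just over 2-fold. The gene Ly6m, listed under an older symbol, had 2.13, 0.204, 1.11 and 0.239 FPKM in the same order. Lynx1, which tunes nicotinic acetylcholine receptors, lies beside Ly6d and had 15.7, 21.2, 21.7 and 19.4 FPKM, a difference under 2-fold in either pair. Arc, an immediate early gene at the far end of the window, had 25.3 FPKM in the library labelled IL-10 KO and 68.1 in C57BL/6J wild type (-1.39). The BALB/c pair had 45.1 in the library labelled Rag2 KO and 34.1 in BALB/c wild type (0.40). Of the genes of the window that were tested, 7 of 11 stood 2-fold or more higher and 1 lower in the C57BL/6J pair, and 5 of 10 higher and 1 lower in the BALB/c pair. Those counts include the 5 Ly6 genes. Over all tested genes 10.1% were higher and 3.82% lower in the C57BL/6J pair, and 4.42% and 2.03% in the BALB/c pair.

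**Figure D3:**
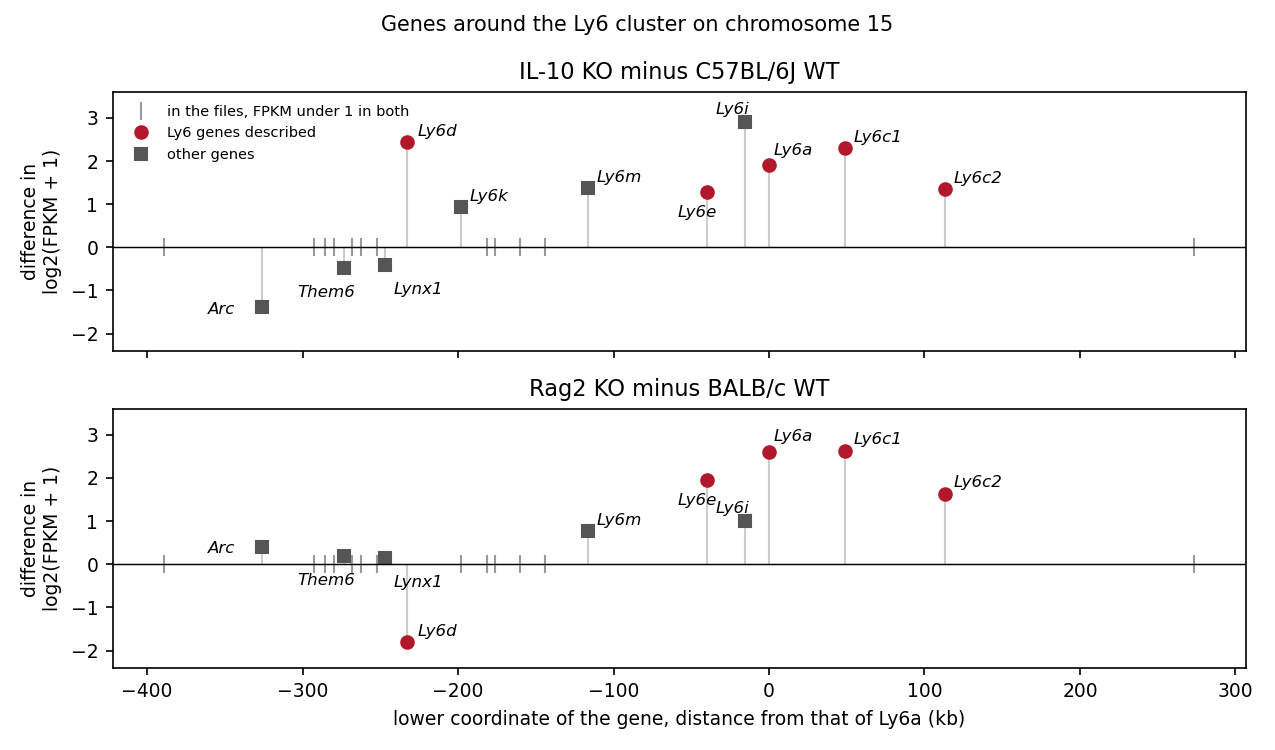
Log2 difference of every tested gene in the window around the Ly6 cluster, plotted by its distance from Ly6a in kb, for the IL-10 and the Rag2 comparison. Ly6e, Ly6i, Ly6a, Ly6c1 and Ly6c2 lie side by side and are all at least 2-fold higher in both, while Ly6d, set apart from them, is higher in the upper panel and lower in the lower panel. In the lower panel Ly6i is only just over 2-fold (1.003), from 26 against 10 fragments.

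The wider list of genes with a Ly6 or related uPAR domain holds 32 in the files, neighbours in the cluster included. In the C57BL/6J pair 12 were tested and 4 of them stood 2-fold or more higher, namely Ly6i, Ly6m, Plaur and Cd177, where 10.1% of all genes did. In the BALB/c pair 10 were tested, with Ly6i and Cd177 higher and Cd59a lower, where 4.42% and 2.03% of all genes were. The list medians were 0.34 and 0.10. Plaur, the receptor of urokinase, had 120 FPKM in the library labelled IL-10 KO and 56.1 in C57BL/6J wild type (1.08). The BALB/c pair had 137 in the library labelled Rag2 KO and 74.2 in BALB/c wild type (0.87). Cd177, a neutrophil surface protein, had 13.2 against 0.365 FPKM in the first pair (3.38) and 2.92 against 0.040 in the second (1.91). Cd59a, an inhibitor of the complement membrane attack complex, had 3.30 against 2.42 FPKM (0.33) and 2.16 against 5.82 (-1.11). Gpihbp1, which carries lipoprotein lipase on capillary endothelium, had 2.02 against 1.36 FPKM and 3.33 against 5.96, resting on 10 and 7 and on 19 and 35 fragments. In none of the 28 tested genes that assemble and attach the GPI anchor was a difference of 2-fold reached in either pair, and their median was 0.09 in both.

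The interferon-induced lists differed in the direction of Ly6a and Ly6e. The type I list holds 32 genes, of which 24 stood 2-fold or more above wild type in the library labelled IL-10 KO (median 1.42) and 22 in the library labelled Rag2 KO (median 1.40), with 0 lower. Of 25 interferon-gamma-type genes the counts were 23 and 21, with a median of 2.36 in both comparisons and 0 lower. Over all tested genes 10.1% and 4.42% stood that much higher. The differences of Ly6a (1.90 and 2.61) lie between these medians in the first pair and above both in the second. Ly6e, at 1.28 and 1.96, was close to the type I median in the first pair and between the medians in the second.

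By pattern over the 4 libraries, Ly6a was closest to Psmb8, a subunit of the immunoproteasome, of 8812 candidate genes with an FPKM of at least 5. The root mean square difference in log2 of FPKM plus 1, after removing the mean of each gene, was 0.059. Psmb8 had 150.001 FPKM in the library labelled IL-10 KO, 37.6 in C57BL/6J wild type, 233 in the library labelled Rag2 KO and 41.7 in BALB/c wild type. Next were Ly6c1 (0.17), Psmb9 (0.19) and Tgtp1 (0.23). The nearest to Ly6c1 were Gbp3 (0.13), Ms4a6d (0.15), Tgtp2 (0.16) and Psmb8 (0.16). To Ly6c2 they were Slfn5 (0.085), Casp1 (0.095), Lgals3bp (0.11) and Ecscr (0.12), and to Ly6e they were Ifi27l2a (0.095), Slfn5 (0.12), Psat1 (0.12) and Ly6c2 (0.15). Ly6d had no close neighbour: the nearest were Ptn (0.59), Hbb-b2 (0.61), Ctla4 (0.62) and Chrdl2 (0.63). With 4 libraries, such nearness describes the libraries alone.

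Markers of other cell types differed between the same libraries. For the counts that follow, 10.1% of all tested genes were higher and 3.82% lower in the C57BL/6J pair. In the BALB/c pair the shares were 4.42% and 2.03%. In sorted bulk cells, more cells of a type and more RNA per cell cannot be told apart. Of 14 blood endothelial markers 0 were at least 2-fold apart in either pair, with medians of -0.07 and -0.01, and their summed FPKM was 179 in the library labelled IL-10 KO, 168 in C57BL/6J wild type, 217 in the library labelled Rag2 KO and 169 in BALB/c wild type. None of the 14 was at 0 in any library. Tek, an angiopoietin receptor, had the highest difference in the first pair (0.998, just under 2-fold) and Plvap, of fenestrated vessels, in the second (0.97). Pecam1, which encodes CD31, had 17.9, 12.4, 13.3 and 13.3 FPKM. The 6 lymphatic endothelial genes had medians of -0.60 and -0.66, with 2 of them, Lyve1 and Mmrn1, 2-fold or more lower in the first pair and 0 in the second. The part of endothelium in the Ly6a and Ly6c1 values was not tested. The 13 general fibroblast genes had medians of -0.28 and -0.15, with 0 of them 2-fold higher in either pair and 1, Col6a1, lower in the first. Adventitial fibroblast genes, a group in which Ly6a is a known marker, had 4 of 16 higher and 1 lower in the first pair (median 0.47) and 1 of 16 higher in the second (median 0.12). Among them Pi16 had 503 against 75.4 FPKM in the first pair and 133 against 132 in the second. The part of adventitial fibroblasts in the Ly6a values was not tested.

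Monocyte and macrophage genes were at least 2-fold higher for 13 of 17 in the library labelled IL-10 KO (median 2.44) and for 8 of 17 in the library labelled Rag2 KO (median 0.81), with 0 lower. Their summed FPKM was 2231 and 764 in the first pair and 1670 and 897 in the second, and none was at 0. Ms4a6c, a membrane protein gene of monocytes, had 16.9 against 1.40 FPKM (2.90) in the first pair and 18.1 against 2.39 (2.49) in the second. F10, which encodes coagulation factor X, had 7.52 against 0.199 FPKM (2.83) and 3.86 against 0.131 (2.103). Ms4a4c had 6.91 against 1.51 FPKM (1.66) and 7.49 against 1.39 (1.83). Ccr2, the chemokine receptor of inflammatory monocytes, had 14.2 against 0.812 FPKM (3.07) and 3.14 against 1.36 (0.81). The Ly6c2 values beside these were 21.7 against 7.91 FPKM and 21.6 against 6.25. The part of monocytes in the Ly6c values was not tested. Pan-haematopoietic genes were higher for 12 of 12 in the first pair (median 2.99), and for 0 of 12 with 1 lower in the second (median 0.32). Neutrophil genes were higher for 11 of 11 and for 7 of 7 tested. Over all tested genes 10.1% were higher in the first pair and 4.42% in the second.

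Beside Ly6d stand the lymphocyte and epithelial markers. Over all tested genes 10.1% were higher and 3.82% lower in the C57BL/6J pair, and 4.42% and 2.03% in the BALB/c pair. Genes of B and plasma cells were at least 2-fold higher for 9 of 11 in the library labelled IL-10 KO (median 2.26), and lower for 10 of 11 in the library labelled Rag2 KO (median -2.17), in which 4 of the 11 were at 0. Their summed FPKM was 509 and 252 in the first pair and 3.15 and 471 in the second. T cell genes were higher for 10 of 11 in the first pair (median 2.65) and lower for 4 of 10 in the second (median -0.84). Colon epithelial genes were higher in both pairs, for 12 of 14 (median 1.63) and 11 of 13 (median 1.46). Of 14 genes of stratified epithelium 5 were at 0 in all libraries, and the list summed to 26.8 and 13.01 FPKM in the first pair and 14.8 and 3.04 in the second. Only 3 of the 14 reached an FPKM of 1 in either pair, so these sums rest on few genes. Sprr1a alone had 14.5 and 6.09 FPKM in the first pair and 7.62 and 0.517 in the second. The part of B cells, of T cells and of epithelium in the Ly6d values was not tested.

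**Figure D4:**
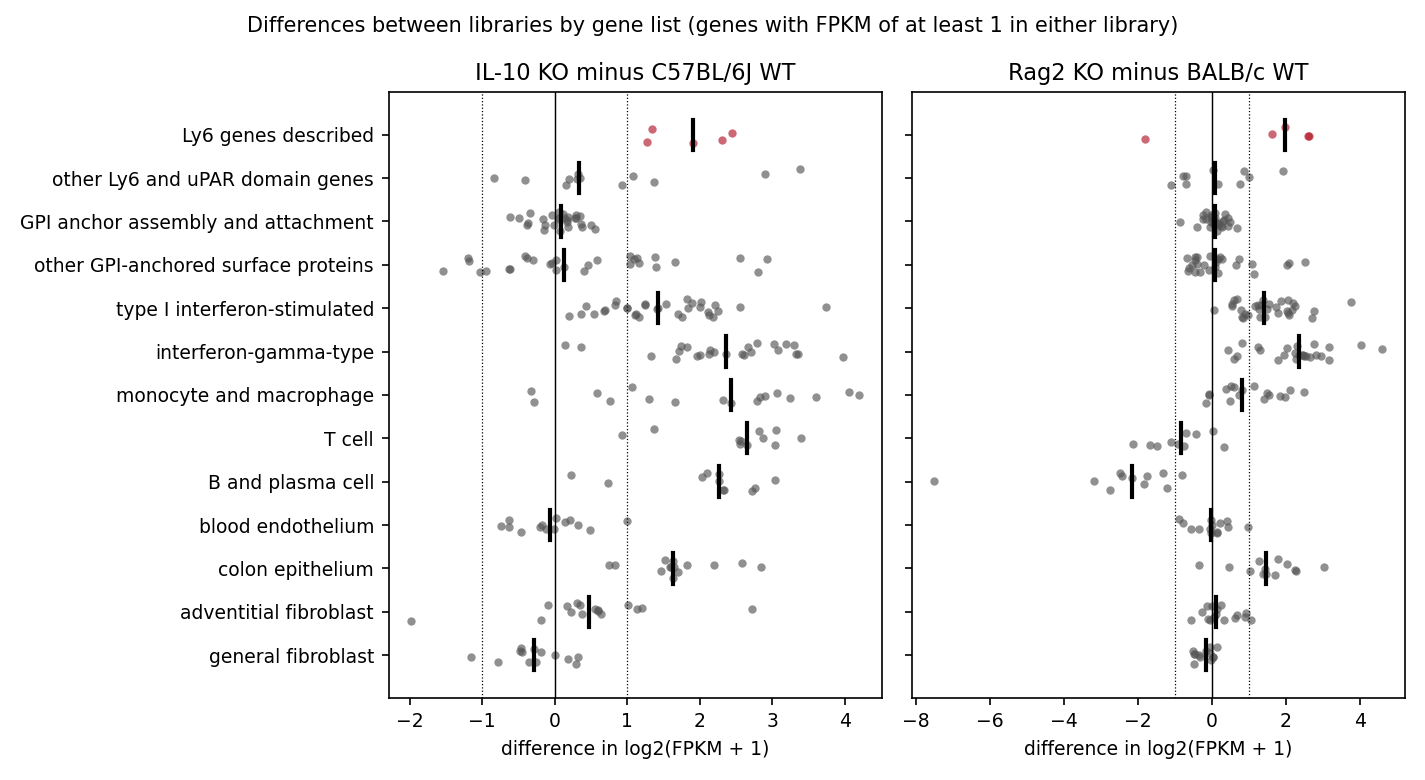
Log2 difference of each tested gene (points) and the median (bar) for the Ly6 genes and 12 gene lists, in the IL-10 and the Rag2 comparison, with dotted lines at 2-fold. The Ly6 medians of 1.90 and 1.96 lie between those of the type I and interferon-gamma-type lists in both panels. The colon epithelial medians of 1.63 and 1.46 lie there too. In the first panel the B cell median is 2.26 and the monocyte and macrophage median 2.44. The medians of the blood endothelial and fibroblast lists lie between -0.28 and 0.47. The B cell and T cell medians, like Ly6d, lie right of 0 in the first panel and left of 0 in the second.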

How the data were processed

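Libraries were made from total RNA with a TruSeq stranded mRNA kit, per the labels. The files hold FPKM that the authors computed per gene. Cuffdiff 2.2.1, TopHat2 2.1.1, SAMtools 0.1.18 and Bowtie2 2.2.8 are listed, with build mm10, per the submitters' processing notes. No source used here gives the annotation, strand setting, library normalization or read length. The mm10 sequence is that of C57BL/6J, and whether BALB/c fragments map less well to this cluster was not tested.

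A pseudocount of 1 was added to each FPKM before taking log2, which understates the change of low genes. Genes reaching 1 FPKM in either library were compared and counted at 2-fold. Other pseudocounts, filters and scalings were tried. Depth and whole fragments were read from the steps between low FPKM values: of 10608 low genes detected in all libraries, 6132 (57.8%) came out within 0.01 of whole numbers. A length fit, in which 489 of 758 genes lay within 5%, gave the depth. The search went up to 150 fragments in the lowest library of a gene, below the nominal 590 to 2670 of Ly6a, Ly6c1 and Ly6e. It gave no numbers for these 3 genes. Their counting error therefore assumes an effective length of the annotated transcript less the fitted offset of 210 nt, and a normal approximation. The other intervals are exact, and all are at 95%. The 5 genes and the gene lists were chosen with earlier results of these data known. Named are the 5 genes, the 4 nearest by pattern to each, genes of the window and related genes with an FPKM of at least 5, up to 4 list members with the largest differences, and checks. Ly6m, Ccr2, Prnp, Thy1 and Gpc1 fall outside that rule and were picked after their values were seen. The calculation was tested on simulated data, with Python 3.11.15, numpy 2.4.6, pandas 2.3.3, scipy 1.17.1 and Biopython 1.88.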

Additional observations from a re-analysis of the deposited data

Results flagged for a closer look

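Ly6d differed in opposite directions in the knockout comparisons, which is what singled it out. It was higher in the library labelled IL-10 KO than in C57BL/6J wild type (2.44 on the log2 scale, 133 against 22 fragments) and lower in the library labelled Rag2 KO than in BALB/c wild type (-1.80, 0 against 12 fragments). The first difference minus the second was 4.25. With 1 library per group this difference between the comparisons was not tested. The size of the second value depends on the pseudocount because the library labelled Rag2 KO is at 0.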

How the results depend on the processing

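The count of Ly6 genes at least 2-fold apart stayed at 5 of 5 in the IL-10 comparison under all 6 alternatives tried. In the Rag2 comparison it was 4 with a pseudocount of 5, where Ly6d was at -0.58, and 4 of 4 with a filter at an FPKM of 5, which leaves Ly6d out. With a pseudocount of 0.1 the Ly6d value there was -4.70. Between the wild types the count was 0, and 1 with a pseudocount of 0.1 (Ly6d, -1.03). Of 89 values of single Ly6 genes under an alternative, 83 were classed as moving by less than their counting error and 6 by more. Ly6d in the Rag2 comparison is among the 83, yet it ranged from -4.70 to -0.58, the widest range of the 5 genes. The classing therefore does not make that value stable. All 6 classed as moving by more were Ly6a, Ly6c1 and Ly6e in the knockout pairs after rescaling to the same total without small RNA genes. That rescaling put the median of all genes at -0.12 for IL-10 and at -0.14 for Rag2.

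The counts of all genes depend more on the setting. In the IL-10 comparison 1297 were higher and 488 lower, and 611 and 182 with a pseudocount of 5. A pseudocount of 0.1 gave 787 lower, the filter at 5 gave 846 higher and the rescaling 906 lower. In the Rag2 comparison 545 and 251 became 278 and 68 with a pseudocount of 5, and lower genes numbered 532 with 0.1, 159 with the filter and 635 with the rescaling. Between the wild types 223 and 267 became 477 and 452 with 0.1, 56 and 104 with 5, and 512 and 423 with the rescaling, and the filter left 129 higher. No paired analysis was possible because each group has 1 library, and none could be left out. Depth limits Ly6c2, Ly6d and Ly6i, which rest on 2 to 133 fragments where detected.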

Other observations

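Other proteins with the same lipid anchor had medians near 0. Of 35 such genes outside the Ly6 family, 29 were tested in the C57BL/6J pair, with 11 at least 2-fold higher and 4 lower in the library labelled IL-10 KO, and 27 in the BALB/c pair, with 5 higher and 0 lower in the library labelled Rag2 KO. Over all tested genes 10.1% were higher and 3.82% lower in the first pair, and 4.42% and 2.03% in the second. The medians of the list were 0.13 and 0.08. Its largest differences in the first pair were those of Cd52 (2.92), Cd48 (2.80) and Bst1 (2.56). In the second pair these stood at 0.66, 0.21 and 2.02. Alpl, the tissue-nonspecific alkaline phosphatase, had 53.0 against 24.4 FPKM in the first pair and 129 against 21.9 in the second. Bst2, the interferon-induced tether of budding viruses, had 214 against 80.7 and 309.5 against 72.0 FPKM. Prnp, which encodes the prion protein, was level at 187 against 185 and 194 against 184 FPKM. Thy1, a surface protein of fibroblasts and T cells, had 88.3 against 58.4 and 103 against 61.7 FPKM. Gpc1, a heparan sulfate proteoglycan, had 12.031 against 37.0 FPKM in the first pair (-1.55) and 24.4 against 30.9 in the second (-0.33).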
